A study of Mus musculus with 24 samples.

Results

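The genes described here are 40 genes of the presynaptic vesicle and the active zone, measured by bulk RNA-seq in mouse cortex. They were chosen by name, as the rows of the deposited gene table whose identifier maps to one of 40 listed symbols, and all 40 were found among its 53647 genes. All 40 passed the filter on low counts. They comprise synapsins, vesicle membrane proteins, vesicular transmitter transporters, synaptotagmins and Doc2 proteins. The others are SNARE proteins and complexins, Rab3 proteins with an effector, active zone scaffolds, Munc13 priming factors and neurexins.

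The cortex came from mice aged 7.5 months in 3 genotypes with 8 libraries each, 4 with the letter F and 4 with the letter M in the title. All mice carried the 5xFAD transgenes, which are expressed in neurons from the Thy1 promoter and lead to amyloid plaques. The 5xFAD group is marked WT in its titles. The 5xFADM28L and 5xFADP522R groups, called M28L and P522R below, are marked HOM for the named variant of Plcg2. Its product, phospholipase C-gamma-2, is made mainly by microglia in the brain, and the study asks how the variants alter the cortex of a plaque-forming mouse. No group lacked the transgenes, so the effect of the transgenes themselves on these genes cannot be read from the data.

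A presynaptic terminal stores transmitter in vesicles, which transporters fill and synapsins hold in a reserve. Vesicles dock at the active zone, a protein mat of RIM, ELKS, Bassoon and Piccolo, where Munc13 proteins prime them. Calcium entry acts on synaptotagmins such as Syt1, and the SNARE proteins Snap25, Stx1a and Vamp2 then fuse the vesicle with the membrane. The messenger RNA of these genes is made in the neuron's cell body, and much of it comes from neurons whose bodies lie in the tissue sampled.

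The Rab3 genes encode related vesicle GTPases, and their coding sequences show how members of one family differ in base composition. The stretch below is shown because Rab3a and Rab3b were higher in P522R while Rab3c was lower. It was chosen after those values were seen. It covers 120 coding bases around the nucleotide-binding loop of each protein, from the longest coding transcript in GENCODE M21, with G and C in capitals.
Rab3a: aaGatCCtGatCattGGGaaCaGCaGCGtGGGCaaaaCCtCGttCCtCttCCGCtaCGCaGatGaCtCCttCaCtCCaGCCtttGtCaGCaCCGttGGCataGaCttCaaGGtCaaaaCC
Rab3b: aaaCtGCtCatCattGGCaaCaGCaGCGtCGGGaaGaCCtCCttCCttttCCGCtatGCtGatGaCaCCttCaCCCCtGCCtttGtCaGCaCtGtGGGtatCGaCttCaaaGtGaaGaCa
Rab3c: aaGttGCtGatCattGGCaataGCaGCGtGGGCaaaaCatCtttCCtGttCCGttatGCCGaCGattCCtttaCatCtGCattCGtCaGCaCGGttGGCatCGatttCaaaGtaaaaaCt

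The stretch spans coding bases 70 to 189 in Rab3a and Rab3b and 94 to 213 in Rab3c. Rab3b differed from Rab3a at 23 of the 120 bases and Rab3c at 24. G or C made up 62 bases in Rab3a, 61 in Rab3b and 53 in Rab3c. The last base of the codon was G or C in 30 of 40 codons of Rab3a, 28 of Rab3b and 22 of Rab3c. Over the whole transcript, GC content was 55.0% in Rab3a, 49.3% in Rab3b and 41.9% in Rab3c. Middle coding stretches of 6 members, tried first, did not rank the members in the order of their differences. That of Syn1, whose rise was the largest of the 40, held 47.5% GC, below the 58.3% of Vamp2 and the 70.8% of Rph3a.

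Syn1, on chromosome X, had the largest difference of the 40 members, and Rims1 was among the lowest, so the 250 bases before their start sites are also shown (RefSeq, GRCm38.p6, both on the minus strand and written in the direction of the gene). Matches to the motifs searched are in capitals.
Syn1, chrX:20920919-20921168: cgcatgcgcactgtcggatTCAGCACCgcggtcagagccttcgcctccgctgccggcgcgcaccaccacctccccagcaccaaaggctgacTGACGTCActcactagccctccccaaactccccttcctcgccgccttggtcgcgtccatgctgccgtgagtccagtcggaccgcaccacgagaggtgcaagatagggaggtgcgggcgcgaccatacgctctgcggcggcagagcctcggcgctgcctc
Rims1, chr1:22806159-22806408: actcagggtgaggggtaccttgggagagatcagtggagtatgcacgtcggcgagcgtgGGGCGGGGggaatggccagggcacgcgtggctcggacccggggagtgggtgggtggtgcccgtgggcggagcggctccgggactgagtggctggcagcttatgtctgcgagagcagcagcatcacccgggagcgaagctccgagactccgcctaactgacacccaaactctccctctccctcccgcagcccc

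RefSeq promoters were matched for 30 of the 40 members, with 41 start sites. In these, 6 motifs were searched on both strands, and only exact matches were counted. The Syn1 window held TCAGCACC, the left arm of the RE1 element bound by the repressor REST, from 231 to 224 bases before the start. It also held TGACGTCA, the cAMP response element, from 159 to 152 bases before the start. Of the 41 member promoters, 1 held each of these motifs, against 1.32% and 1.55% of all 32851 promoters. The GC box GGGCGGGG was present in 14 member promoters, among them that of Rims1, against 16.1% of all promoters. Median GC content was 59.6% in the member promoters and 52.4% in all promoters, and its part in that count was not tested. The E box CACGTG was present in 2, against 6.02% of all. Exact matches to the RE1 core and the RE1 right arm were present in 0, against 0.00913% and 0.0974% of all. The core contains the left arm. In the printed Syn1 window, the bases that follow the left arm resemble the rest of the core and the right arm without matching either exactly. The counts of 0 therefore do not show that Syn1 lacks a longer RE1 element, and sites with mismatches were not searched. Each printed window held 68.0% GC.

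Total counts ran from 79230161 to 115154197 per library. Plcg2 was counted at 9.38 ± 2.61 CPM in 5xFAD, 8.69 ± 1.96 in M28L and 19.5 ± 6.50 in P522R (SD, n = 8 each), where CPM are counts scaled to the TMM-adjusted library size. The short neuronal RNA Bc1 took over 10% of the counts in 5 libraries, which were P522R replicates 8, 24, 31 and 106 and 5xFAD replicate 1180. Of the P522R libraries with the letter F, 3 of 4 were among them. M28L replicate 28 was the lowest library of its group by a wide gap in 14 members. Fewer genes were detected in P522R, 22958 to 26648 per library, than in 5xFAD, 27831 to 29012. The 14 general neuron markers summed to between 7738 and 8655 CPM in 5xFAD, 6399 and 8439 in M28L, and 7631 and 10017 in P522R. In P522R against 5xFAD, 3 of those neuron markers were higher and 4 lower (edgeR, adjusted p below 0.05). In that comparison 15.0% of all genes tested were higher and 14.8% lower, the shares to set beside the marker counts. Of 12 excitatory neuron markers 1 was higher and 5 lower, and of 12 inhibitory ones 1 and 1. Of 12 astrocyte markers 5 were higher and 1 lower, of 13 microglia markers 1 and 2, of 10 oligodendrocyte markers 2 and 2, and of 8 endothelial markers 2 and 0. Of 8 meningeal and fibroblast markers 5 were higher and 0 lower, with sums of 537 to 878 CPM in 5xFAD and 682 to 1076 in P522R. Markers of neighbouring regions were higher and lower in 3 and 2 of 10 for thalamus, 3 and 3 of 9 for striatum, 2 and 1 of 8 for hippocampus, and 2 and 0 of 5 for cerebellum and hindbrain. The part of any of these in the members' differences was not tested.

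In M28L none of the 40 members differed detectably from 5xFAD. Their differences ran from -0.15, for Slc17a7, to 0.21, for Unc13c, on the log2 scale, with a median of 0.04 against 0.01 over all genes. With edgeR's quasi-likelihood test, 0 members passed an adjusted p of 0.05, where 1.21% of all 21280 genes tested did, 0.503% higher and 0.710% lower. At an unadjusted p below 0.05 there was 1 of 40, Unc13c (SE 0.09, adjusted p = 0.37), where 2410 of the 21280 genes tested passed. DESeq2 called 0 members, where it called 2.54% of all genes, and gave 2 members at an unadjusted p below 0.05. Syn1 differed by 0.06 (SE 0.12) and Rims1 by 0.05 (SE 0.08).

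In P522R 21 of the 40 members differed from 5xFAD, 9 higher and 12 lower (edgeR, adjusted p below 0.05). Of all genes tested 29.8% were called, 15.0% higher and 14.8% lower. All members had a mean of at least 1 CPM, and among genes at that level, tested alone, 43.0% were called (48.8% against M28L). The median difference of the members was 0.00, against -0.04 over all genes, and the median size regardless of sign was 0.26, against 0.24. Against M28L, 22 members differed, 11 higher and 11 lower, where 34.8% of all genes were called, 16.5% higher and 18.3% lower. The 11 members higher than in M28L were the 9 named below with Slc17a7 and Vamp1, and the 11 lower ones were the 12 without Cplx2. The libraries of 5 members did not overlap between P522R and 5xFAD, and those of 4 did not overlap between P522R and M28L. The share of all genes without overlap was not counted, so overlap is given below as a description of single members only. The comparisons with P522R use the same 8 P522R libraries, so they are not independent of each other. In bulk tissue, a change in the number of cells that express a gene and a change in RNA per cell cannot be told apart.

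**Figure D1:**
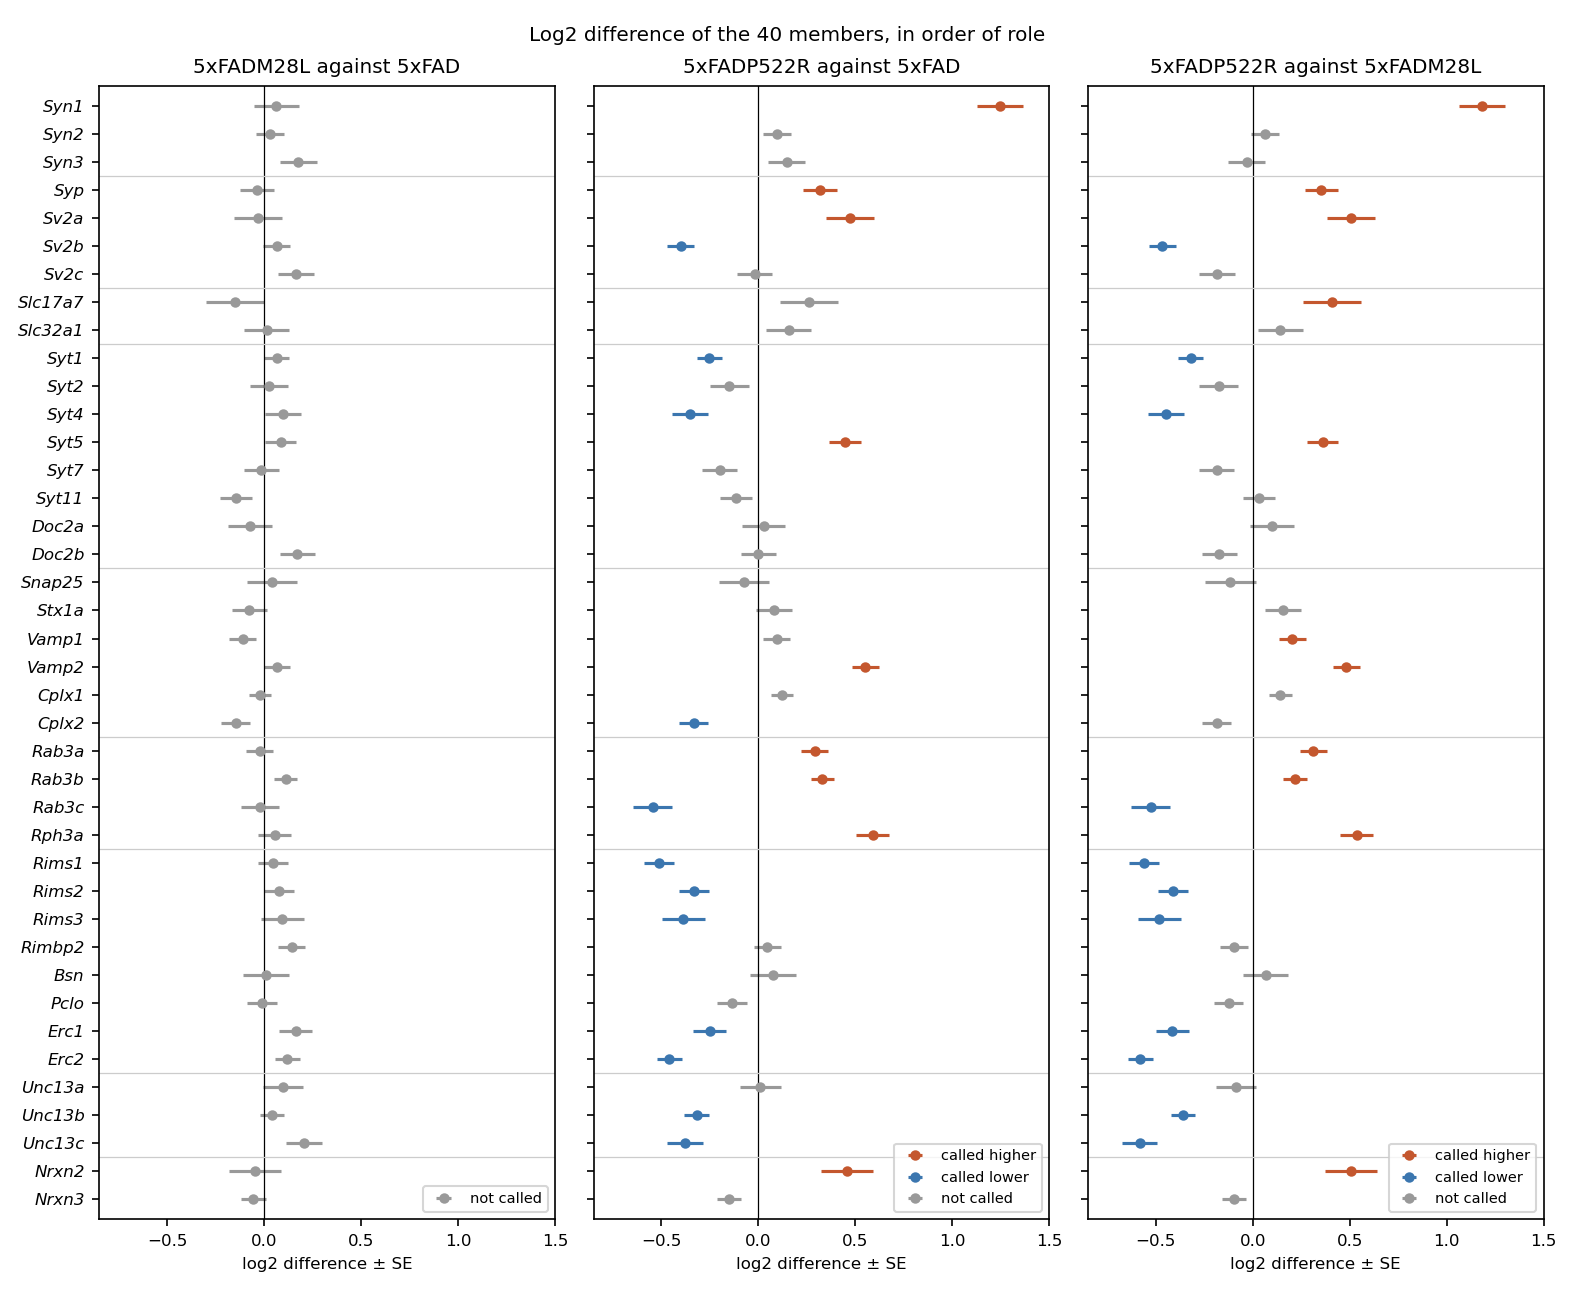
Log2 difference with its standard error (horizontal axis) of the 40 members, ordered by role from synapsins at the top to neurexins at the bottom, in the 3 comparisons. Orange points were called higher, blue points lower and grey points were not called. In M28L against 5xFAD all points are grey, while in P522R against 5xFAD 9 are orange and 12 blue.

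Among the synapsins, which tether vesicles in the reserve pool, Syn1 rose and the other members were not called. Syn1 (ENSMUSG00000037217.16, chromosome X, 20726750 to 20787243, as deposited, in a build the table does not name) lay between 549 and 1029 CPM in 5xFAD, with a median of 796. In M28L it lay between 556 and 898 (median 875), and in P522R between 1182 and 2192 (median 1789). Every P522R library was thus above every library of the other genotypes. Syn1 was 2.37-fold higher in P522R than in 5xFAD, a log2 difference of 1.25 (SE 0.12, edgeR adjusted p = 7.1e-08), and 1.18 higher than in M28L (SE 0.12, adjusted p = 1.4e-07). Per kilobase of exon, its mean level went from 233 in 5xFAD to 548 in P522R. Syn2 differed by 0.09 (SE 0.07, adjusted p = 0.35) and Syn3 by 0.15 (SE 0.10, adjusted p = 0.26). Syn3 shares 14.1% of its exon bases with Timp3 on the opposite strand, and Timp3 had many times its counts, so its value is uncertain.

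The vesicle membrane proteins split. Sv2a, the ubiquitous SV2 glycoprotein, went from 572 ± 78.1 to 791 ± 142 CPM, a rise of 0.47 (SE 0.12, edgeR adjusted p = 0.0050). Its paralog Sv2b, at 555 ± 38.8 CPM in 5xFAD and 425 ± 80.1 in P522R, fell by 0.40 (SE 0.07, adjusted p = 1.1e-04). Sv2c differed by -0.02 (adjusted p = 0.90). Synaptophysin, Syp, an abundant vesicle protein, rose by 0.32 (SE 0.09, adjusted p = 0.0065), and 16.8% of its exon bases overlap an opposite-strand gene with few counts. Within P522R, Syp lay between 3001 and 3244 CPM in the libraries with over 10% Bc1 and between 2191 and 2690 in the others, against 1896 to 2559 in 5xFAD. Sv2a lay between 810 and 979 CPM in the former and between 585 and 774 in the latter. Without the Bc1-high libraries of all genotypes, neither Syp (0.13) nor Sv2a (0.17) was called, nor was Syp with GC offsets (0.12, adjusted p = 0.059). Neither vesicular transporter was called against 5xFAD. Slc17a7, which loads glutamate, differed by 0.26 (SE 0.15, adjusted p = 0.20), and Slc32a1, which loads GABA, by 0.16 (SE 0.12, adjusted p = 0.34). Against M28L, Slc17a7 was 0.41 higher (SE 0.15, adjusted p = 0.036). That call was lost without any 1 of P522R replicates 8, 24, 31 and 106 or M28L replicates 14 and 17 (adjusted p = 0.052 to 0.076).

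Among the synaptotagmins and Doc2 proteins, Syt1 and Syt4 fell and Syt5 rose. Syt1, the main calcium sensor of fast release in forebrain neurons, lay between 1196 and 1725 CPM in 5xFAD (median 1520) and between 925 and 1566 in P522R (median 1260). The groups overlapped, and Syt1 fell by 0.25 (SE 0.06, edgeR adjusted p = 0.0040). That call was lost in 8 of the 41 alternative settings, among them no letter term, GC offsets and leaving out the Bc1-high libraries (-0.19, adjusted p = 0.069). Syt4 fell by 0.35 (SE 0.09, adjusted p = 0.0053). Within P522R it lay between 110 and 141 CPM in the Bc1-high libraries and between 168 and 205 in the others, against 171 to 223 in 5xFAD. Its call was lost in 6 settings, among them leaving out the Bc1-high libraries (-0.14, adjusted p = 0.32). Syt5, at 194 ± 24.9 CPM in 5xFAD and 265 ± 33.9 in P522R, rose by 0.45 (SE 0.08, adjusted p = 1.6e-04). Syt2, Syt7, Syt11, Doc2a and Doc2b were not called, with differences from -0.20 to 0.03. Doc2a shares 39.4% of its exon bases with Ino80e on the opposite strand, which had similar counts, so its value is uncertain.

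Of the fusion machinery, the vesicle SNARE Vamp2 rose while its membrane partners were not called. Vamp2 (ENSMUSG00000020894.17, chromosome 11, 68979316 to 68983210) lay between 1041 and 1403 CPM in 5xFAD (median 1231), between 1037 and 1396 in M28L (median 1355) and between 1578 and 2027 in P522R (median 1787). The P522R libraries did not overlap those of the other genotypes. Vamp2 was 0.55 higher than in 5xFAD (SE 0.07, edgeR adjusted p = 2.8e-06) and 0.48 higher than in M28L (SE 0.07, adjusted p = 8.7e-06). Snap25 differed from 5xFAD by -0.07 (SE 0.13, adjusted p = 0.71), and its P522R libraries spread from 1302 to 3450 CPM. The P522R libraries with over 10% Bc1 lay between 1302 and 2019 CPM and the others between 2329 and 3450. Stx1a differed by 0.08 (SE 0.09, adjusted p = 0.54). Complexins clamp and assist SNARE assembly, and Cplx2 fell by 0.33 (SE 0.07, adjusted p = 0.0012) while Cplx1 differed by 0.12 (SE 0.06, adjusted p = 0.11). Vamp1 was called against M28L alone, at 0.20 (SE 0.07, adjusted p = 0.024), and differed from 5xFAD by 0.09 (adjusted p = 0.33). That call was lost with no filter on low counts or with M28L and P522R fitted alone.

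All 4 members of the Rab3 group were called in P522R, 3 higher and 1 lower, against either other genotype. Of all genes tested, 15.0% were higher and 14.8% lower against 5xFAD, and 16.5% and 18.3% against M28L. Rph3a, rabphilin, which binds Rab3 on the vesicle, lay between 384 and 627 CPM in 5xFAD, between 364 and 600 in M28L and between 639 and 835 in P522R, which overlapped neither. It rose by 0.59 (SE 0.09, edgeR adjusted p = 1.2e-05). Rab3a, at 594 ± 41.2 CPM in 5xFAD and 727 ± 77.7 in P522R, rose by 0.29 (SE 0.07, adjusted p = 0.0020). Rab3b, at 78.5 ± 4.83 and 98.4 ± 7.18 CPM, rose by 0.33 (SE 0.06, adjusted p = 1.7e-04). Rab3b also did not overlap between P522R and 5xFAD. Rab3c, whose coding stretch above is the poorest in G and C, went from 339 ± 70.2 CPM to 231 ± 53.3, a log2 difference of -0.55 (SE 0.10, adjusted p = 1.5e-04). Within P522R, Rab3c lay between 168 and 202 CPM in the 4 libraries with over 10% Bc1 and between 267 and 293 in the others.

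**Figure D2:**
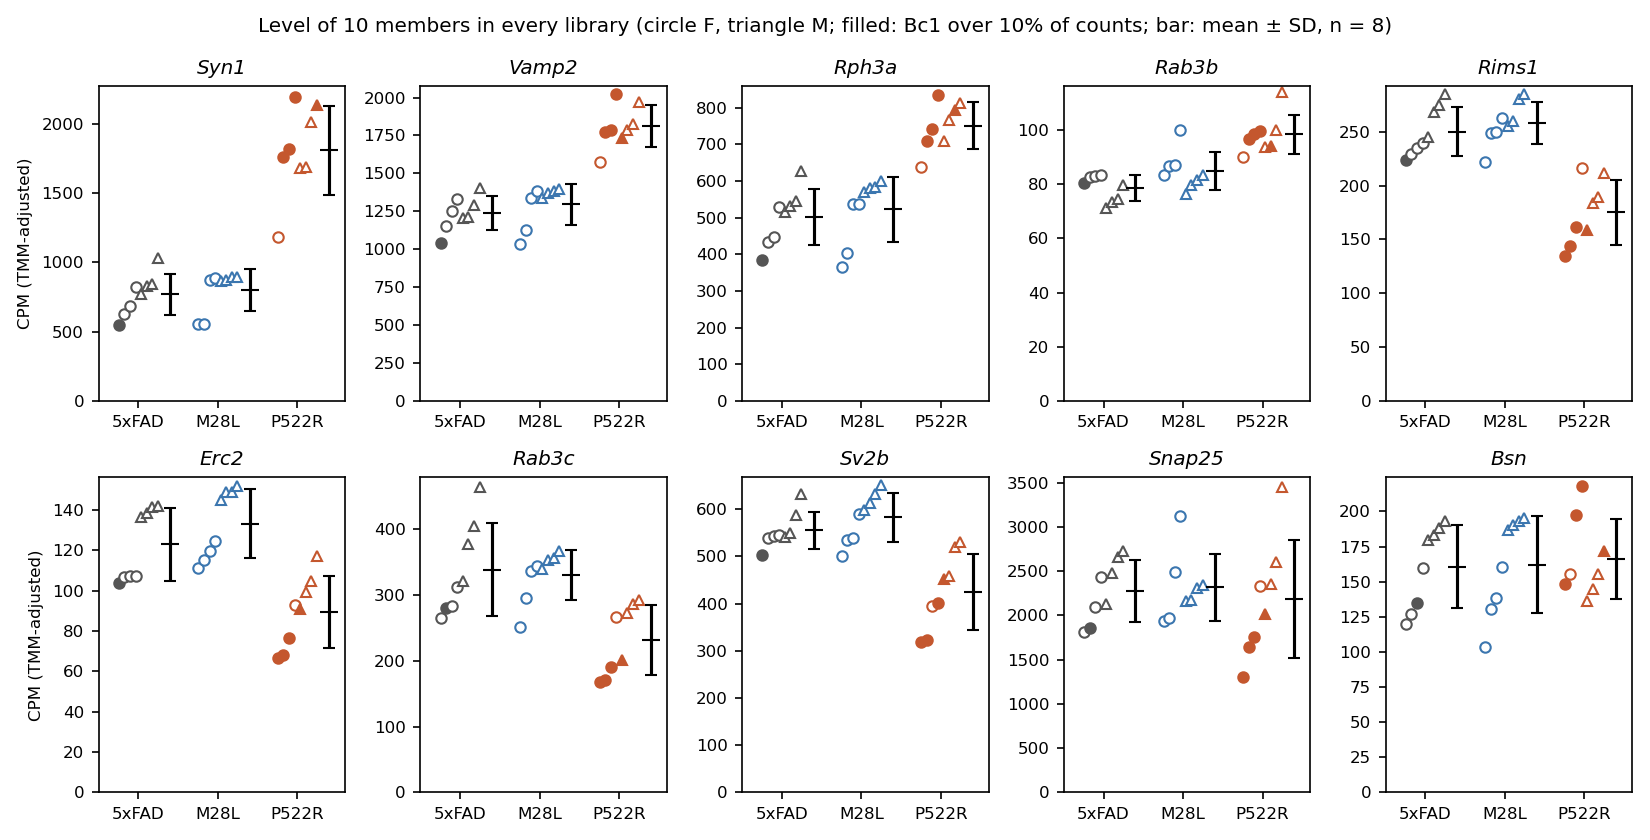
Level in CPM (vertical axis, from 0) of 10 members in every library of each genotype, with circles for F, triangles for M and filled marks for libraries with over 10% Bc1, ordered by letter and then by level. Black bars are mean ± SD of 8 libraries. Syn1, Vamp2, Rph3a and Rab3b sit above all 5xFAD libraries in P522R and Rims1 sits below them, while Snap25 and Bsn overlap. The share of all genes without overlap was not counted.

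Among the active zone scaffolds there were falls and no rise. Of 8 scaffolds 5 were lower and 0 higher in P522R, with a median of -0.29 against 5xFAD and -0.41 against M28L. All 8 were in the highest quintile of exon length, where 28.2% of all genes were lower against 5xFAD and 41.5% against M28L. In F libraries alone, Rims2, Rims3 and Erc1 were not called against 5xFAD and Bsn was called higher. Rims1 (ENSMUSG00000041670.20, chromosome 1, 22356475 to 22845203), which links calcium channels to docked vesicles, lay between 224 and 285 CPM in 5xFAD (median 242) and between 222 and 285 in M28L (median 258). In P522R it lay between 135 and 216 (median 173), below every library of the other genotypes. It fell by 0.51 against 5xFAD (SE 0.08, edgeR adjusted p = 2.2e-05) and by 0.56 against M28L (SE 0.08, adjusted p = 5.8e-06). Within P522R it lay between 135 and 162 CPM in the libraries with over 10% Bc1 and between 184 and 216 in the others.

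Erc2, an ELKS protein of the active zone, lay between 104 and 142 CPM in 5xFAD (median 122) and between 66.5 and 117 in P522R (median 91.9), so the groups overlapped. Within a letter they did not. In F libraries Erc2 lay between 104 and 107 CPM in 5xFAD and between 66.5 and 92.7 in P522R, and in M libraries between 137 and 142 and between 91.1 and 117. Within P522R, it lay between 66.5 and 91.1 CPM in the libraries with over 10% Bc1 and between 92.7 and 117 in the others. Erc2 fell by 0.46 (SE 0.06, edgeR adjusted p = 8.0e-06). Rims3 fell by 0.39 (SE 0.11, adjusted p = 0.0093) and Rims2 by 0.33 (SE 0.08, adjusted p = 0.0018). The Rims2 call was lost in 5 of the 41 alternative settings, among them leaving out the Bc1-high libraries. Within P522R, Rims2 lay between 50.5 and 57.8 CPM in those libraries and between 67.0 and 85.2 in the others. Erc1 lay at -0.25 (SE 0.09, adjusted p = 0.027), a call lost without any 1 of 5xFAD replicates 1189 and 1269 or P522R replicates 21, 24 and 31 (adjusted p = 0.053 to 0.12). The large scaffolds Bsn and Pclo were not called, at 0.08 (SE 0.12, adjusted p = 0.67) and -0.14 (SE 0.08, adjusted p = 0.19), nor was Rimbp2 at 0.05.

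Munc13 proteins prime docked vesicles, and 2 of 3 fell. All 3 were in the highest quintile of exon length, where 28.2% of all genes were lower against 5xFAD. Unc13b fell by 0.32 (SE 0.06, edgeR adjusted p = 4.1e-04) and Unc13c by 0.38 (SE 0.09, adjusted p = 0.0027). The Unc13b call was lost in 6 of the 41 alternative settings, among them F libraries alone and GC offsets. That of Unc13c was lost in 5, among them F libraries alone and leaving out the Bc1-high libraries. Within P522R, Unc13c lay between 18.8 and 24.2 CPM in the Bc1-high libraries and between 27.5 and 31.1 in the others. Unc13a, the main form at cortical excitatory synapses, differed by 0.01 (SE 0.10, adjusted p = 0.95). The neurexins are adhesion molecules of the presynaptic membrane. Nrxn2 rose by 0.46 (SE 0.13, adjusted p = 0.011), and Nrxn3 differed by -0.15 (SE 0.06, adjusted p = 0.068).

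Per kilobase of exon, Syp was the most abundant member in 5xFAD, at 423, followed by Snap25 at 335 and Vamp2 at 325. Syn3 was the least abundant, at 0.595. In P522R, Syn1 at 548 and Syp at 527 headed the order, whereas Syn1 stood eighth in 5xFAD. Neighbours in this order were not tested against each other.

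The direction of a member's difference in P522R went with the composition of its transcript. Across the 40 members, the log2 difference from 5xFAD correlated with GC content at r = 0.60 (Spearman's rho 0.63) and with log2 exon length at r = -0.46 (rho -0.46). These correlations are across genes of the same libraries, which are not independent replicates, and GC content itself correlated with length at r = -0.43. Of the 12 members in the lower GC quintiles, those up to 47.7%, 0 were higher and 8 lower. Of the 10 members in the highest quintile, above 55.5%, 4 were higher and 0 lower. Of 23 members in the highest length quintile 1 was higher and 10 lower, where 12.9% of all genes were higher and 28.2% lower. Over all genes the difference had a correlation with log2 length of rho = -0.06. Without the Bc1-high libraries the members' correlation against 5xFAD was r = 0.31 with GC content and r = -0.45 with log2 exon length.

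All genes showed a GC trend of the same sign. Their median difference rose from -0.18 in the lowest GC quintile to 0.19 in the highest, and r was 0.35 over 21204 genes. In the lowest quintile 1.63% of all genes were higher and 16.7% lower, in the next, which holds 9 of the 12 GC-poor members, 5.21% and 23.2%, and in the highest 32.7% were higher and 4.67% lower. The counts of members by quintile are therefore to be read against these shares. In M28L against 5xFAD the members' correlation with GC content was r = -0.35, and the quintile medians of all genes lay between -0.04 and 0.03. That correlation was 0.08 without M28L replicate 28, -0.15 without 5xFAD replicate 1177, -0.20 without M28L replicate 14 and 0.20 in M libraries alone. Against M28L, the P522R members gave r = 0.65, and 0.41 without the Bc1-high libraries. With log2 exon length the members' correlation there was r = -0.48, and -0.51 without those libraries.

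**Figure D3:**
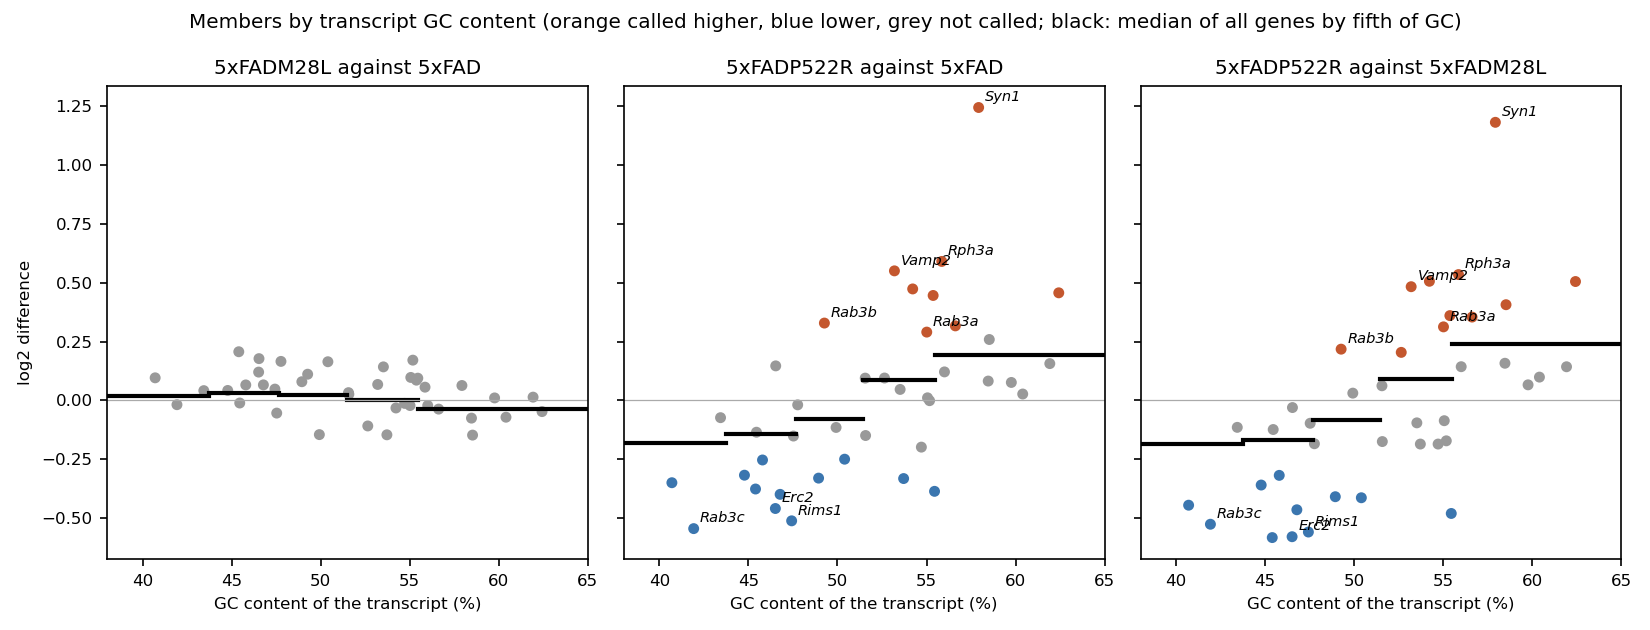
Log2 difference (vertical axis) against GC content of the transcript in percent (horizontal axis) for the 40 members in the 3 comparisons, orange called higher, blue called lower and grey not called. Black lines are the median of all genes in each quintile of GC content. In P522R the lines rise from -0.18 to 0.19 against 5xFAD, and Syn1 at 1.25 lies far above them.

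With offsets for GC content and exon length in each library, 19 of the 21 calls against 5xFAD were kept. Syt1 and Unc13b were lost, Syn3 and Syt7 were gained, and Doc2a and Stx1a were called lower at -0.23 and -0.16. Counts were then 10 higher and 13 lower, where 31.8% of all genes were called, and the members' correlation with GC content was r = 0.23. Syn1 lay at 1.02, Rph3a at 0.42, Vamp2 at 0.45, Rims1 at -0.38, Erc2 at -0.30 and Rab3c at -0.35 under the offsets. Rab3a came down to 0.11 and Syp to 0.13 (0.46 where GC content was taken from the longest transcript of any type, which also gave a call of Vamp1), while Rims3 lay at -0.52 and Cplx2 at -0.43.

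Many of the calls changed when the Bc1-high libraries were left out or the Bc1 share entered the fit. Without the 5 libraries over 10% Bc1, 5 members were higher and 7 lower in P522R against 5xFAD, where 11.5% of all genes were called. That fit kept 4 P522R libraries, of which only replicate 54 had the letter F. A call lost there cannot be told apart from one lost to the smaller number of libraries. Syn1 (0.96), Vamp2 (0.47), Rph3a (0.44), Rab3b (0.36) and Syt5 (0.30) stayed higher. Rims3 (-0.48), Rims1 (-0.36), Rab3c (-0.35), Erc2 (-0.34), Cplx2 (-0.31), Sv2b (-0.29) and Unc13b (-0.28) stayed lower. Sv2a came down to 0.17 and Nrxn2 to 0.16, and neither was called. When log2 of the Bc1 share entered the fit as a covariate, 4 members were higher and 2 lower, where 4.18% of all genes were called. Those were Syn1 (1.19), Rph3a (0.63), Vamp2 (0.60), Rab3b (0.32), Erc2 (-0.30) and Rims1 (-0.29). Against M28L, 4 members were higher and 9 lower without the Bc1-high libraries (13.3% of all genes), and with the covariate 0 were called (0.0940% of all genes, and 6 members at an unadjusted p below 0.05). There Syn1 lay at 1.10. The Bc1 share was at most 6.01% in M28L and at least 5.32% in P522R, so in that comparison it moved with genotype.

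**Figure D4:**
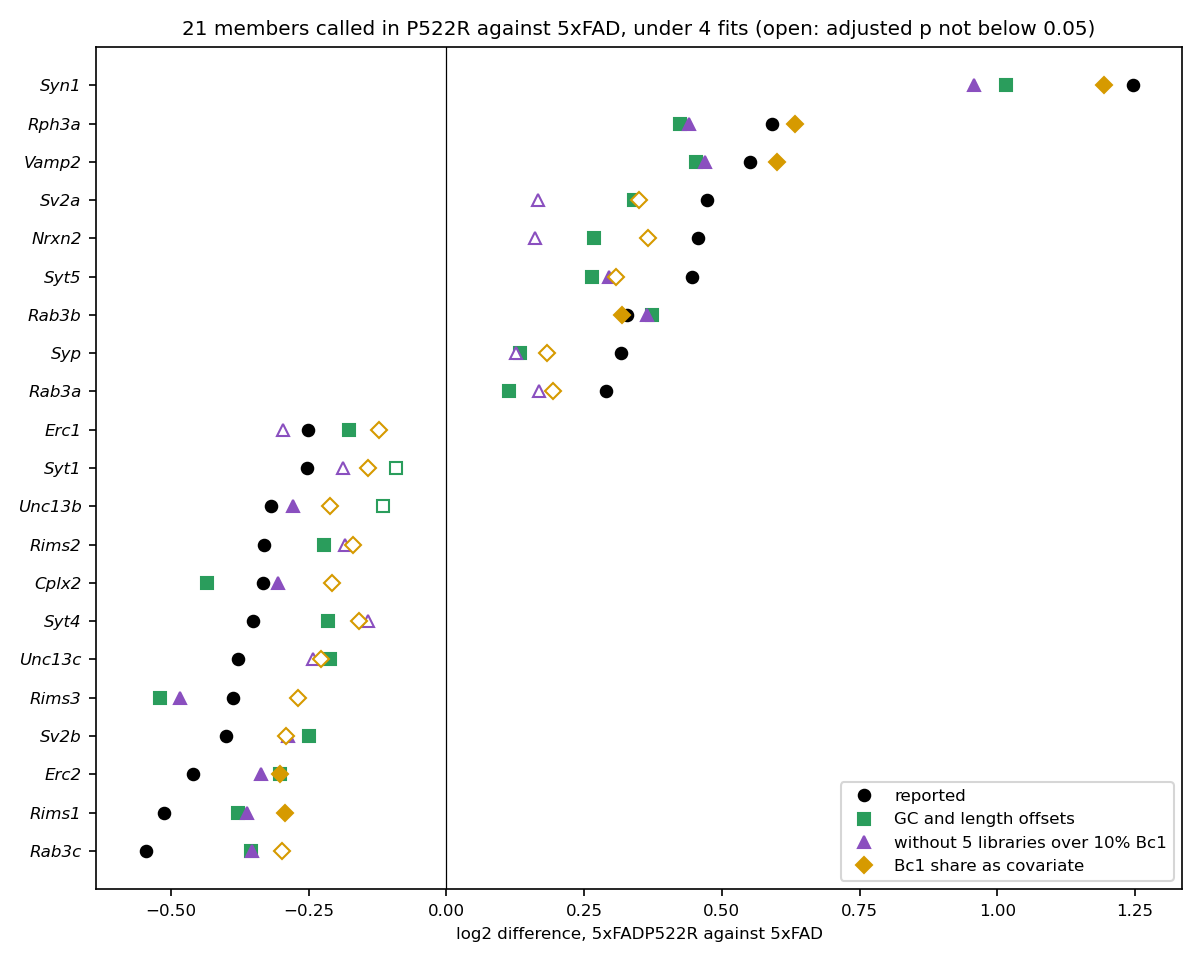
Log2 difference in P522R against 5xFAD (horizontal axis) of the 21 called members under the reported fit, with GC and length offsets, without 5 libraries over 10% Bc1, and with a Bc1 covariate. Open marks had an adjusted p not below 0.05. Syn1, Rph3a, Vamp2, Rab3b, Erc2 and Rims1 have filled marks under all 4 fits.

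Over 41 alternative settings in all, the calls of Syn1, Vamp2, Rph3a, Rims1 and Erc2 against 5xFAD held in every one. Without any 1 library, 20 of the 21 calls held. With the title prefix as a block, Sv2b and Rab3c were called beside those 5, and the other 14 calls were lost. Libraries alone in their prefix add nothing to the comparison of genotypes in that fit. Against M28L no call held in every setting, since none held with the Bc1 covariate, and 21 of 22 held without any 1 library.

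A difference between the letters was tested for every gene. In P522R against M28L it was called for 5.47% of all genes and for 2 of the 40 members, Bsn and Rims3, a share near that background. In the libraries with the letter F, Bsn lay between 103 and 161 CPM in M28L and between 149 and 218 in P522R, which overlapped. In those with the letter M, it lay between 187 and 195 in M28L and between 136 and 172 in P522R, which was lower without overlap. In fits of 1 letter, Bsn in P522R was called higher than in M28L in F, at 0.51, and lower in M, at -0.31, and against 5xFAD at 0.49 and -0.29. The difference of P522R from M28L was 0.76 larger in F than in M (SE 0.17, edgeR adjusted p = 0.022). For Rims3 it was 0.63 larger (SE 0.19, adjusted p = 0.0497), since the M libraries fell from 188 to 209 CPM in M28L to 98.6 to 123 in P522R while the F libraries overlapped. Against 5xFAD the same differences were 0.70 (SE 0.17, adjusted p = 0.12) and 0.41 (SE 0.19, adjusted p = 0.35). In P522R, 3 of the 4 F libraries but 1 of the 4 M libraries had over 10% Bc1, so within that genotype the letter and the Bc1 share cannot be told apart fully. Bsn lay between 149 and 218 CPM in the Bc1-high P522R libraries and between 136 and 156 in the others.

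**Figure D5:**
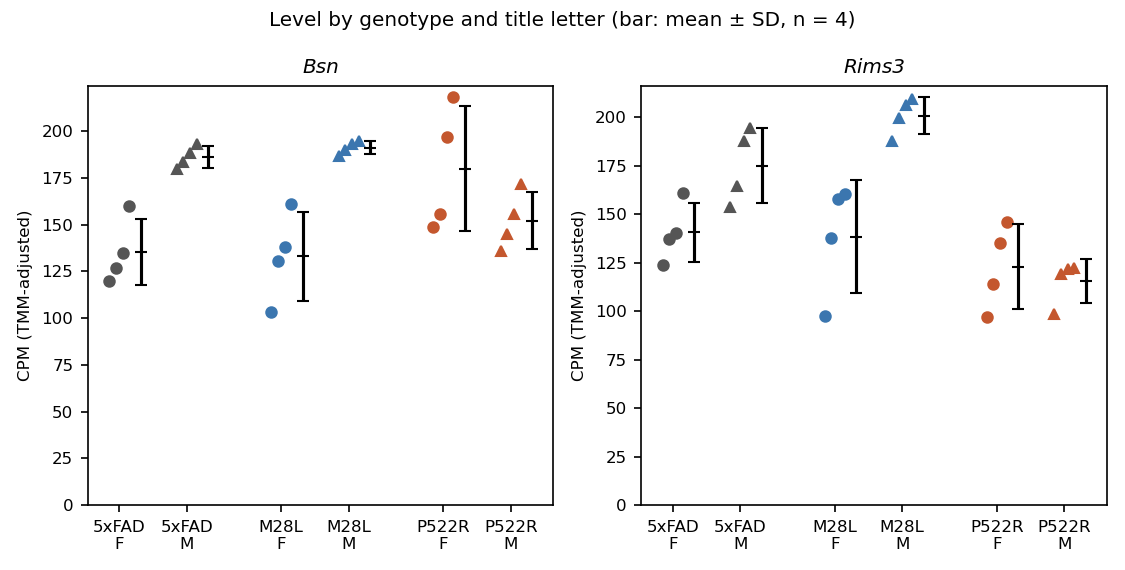
Level in CPM (vertical axis, from 0) of Bsn and Rims3 in the libraries of each genotype by title letter, with mean ± SD of 4 libraries. Bsn in the M libraries lies between 187 and 195 in M28L and between 136 and 172 in P522R, while the F libraries of these genotypes overlap. Rims3 in M libraries lies between 188 and 209 in M28L and between 98.6 and 123 in P522R.

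Other presynaptic genes, from a list of 53, moved both ways as well, with more falls than rises. In P522R against 5xFAD 5 were higher and 18 lower, with a median of -0.17. Of all genes tested, 15.0% were higher and 14.8% lower in that comparison. Sncb, beta-synuclein, rose by 0.32 (SE 0.06, edgeR adjusted p = 2.8e-04). Cask, a scaffold kinase that binds neurexins, fell by 0.44 (SE 0.06, adjusted p = 1.0e-05), as did Napb, a SNARE disassembly factor, by 0.41 (SE 0.07, adjusted p = 1.3e-04). Of 24 vesicle endocytosis genes 6 were higher and 3 lower, with a median of 0.04. The adaptor subunit Ap2a1 rose by 0.84 (SE 0.16, adjusted p = 2.7e-04) and Dnm1, the dynamin that cuts vesicles from the membrane, by 0.59 (SE 0.11, adjusted p = 1.4e-04). Sh3gl2, endophilin A1, fell by 0.46 (SE 0.08, adjusted p = 1.6e-04). In M28L against 5xFAD, 0 genes of either list were called, where 1.21% of all genes were. At an unadjusted p below 0.05 there were 3 of 53 and 4 of 24, where 2410 of the 21280 genes tested passed.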

How the data were processed

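Messenger RNA libraries (KAPA mRNA HyperPrep kit, per the labels' protocols) gave 24 libraries, each taken as 1 mouse because every title has its own animal number, which names the replicate. STAR 2.7.2b and featureCounts are named in the submitters' processing notes. The build, annotation and strand setting are not given in the sources used here, so overlapping genes on opposite strands could not be told apart. The deposited table held whole-number counts per gene that were not normalized. Symbols came from GENCODE M21. Only 1 of the 40 members had the same start and end there, so M21 coordinates were not used for the deposited genes.

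Counts were tested with edgeR 4.0.16 in R 4.3.3 (TMM factors, quasi-likelihood F-test) after filterByExpr by genotype, in 1 fit of all 24 libraries with genotype and letter as terms. Adjusted p-values are Benjamini-Hochberg over the 21280 genes tested, and a gene was called below 0.05 with no minimum fold. Standard errors are the log2 difference divided by the square root of F. The interaction of genotype with letter was tested in a second model. Levels per kilobase are CPM divided by exon length. Some title prefixes, such as F1, recur across genotypes, while others, such as F7, mark 1 library only. A library alone in its prefix adds nothing to a comparison of genotypes within prefixes. The meaning of the prefix is not given in the labels, so it was an alternative block only. The fit was also tried on simulated counts, with changed genes drawn at a mean of at least 1 CPM, a level all members exceed. This followed a first draw from all genes tested, which recovered fewer of them, so no result here rests on the simulation.

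Transcript GC content is that of the longest protein-coding transcript in M21, or the longest of any type where a gene has none. The longest transcript of any type was used at first. The definition was changed after its results had been seen, and it alters the value of 6 members, among them Syp (56.6% against 45.4%). With the first definition the members' correlation with GC content was r = 0.52 in P522R against 5xFAD, where the present one gives 0.60. Offsets were a spline with 5 degrees of freedom per library, fitted to the deviation of log2 CPM (0.5 added to each count). The alternatives were DESeq2 1.42.0, RLE and upper-quartile factors, other filters on low counts, no letter term, the prefix block, the Bc1 share, subsets of libraries, the offsets and leaving out each library. A pair of them, the first GC definition and the fit without Bc1-high libraries and M28L replicate 28, were chosen after seeing the data.

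All 40 members could be named, with up to 5 called genes per direction from the other presynaptic and endocytosis lists by smallest p. The members and lists were chosen with earlier results of these data known.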

Additional observations from a re-analysis of the deposited data

Results flagged for a closer look

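In 120 groups of 8 libraries, 1 per member and genotype, 17 had a library farther from its neighbour than 0.526 of the group's range on the log2 scale, Dixon's limit, which chance passes in about 5% of groups. M28L replicate 28 was the lowest library in 14 of them. The share of the range taken by the gap was 0.710 for Syn2, 0.584 for Syn3, 0.660 for Syp, 0.582 for Sv2a, 0.667 for Slc17a7, 0.673 for Slc32a1 and 0.632 for Syt2. It was 0.528 for Syt7, 0.679 for Syt11, 0.580 for Doc2b, 0.659 for Stx1a, 0.672 for Vamp1, 0.529 for Cplx2 and 0.555 for Nrxn2. Slc17a7, for example, was counted at 570 CPM there and at 1126 in the next M28L library.

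In P522R, Syn1 was lowest in replicate 54, at 1182 CPM against 1680 in the next library (gap 0.569). Replicate 21 was lowest in Slc32a1, at 68.6 against 85.8 CPM (gap 0.604), and highest in Rab3b, at 114 against 100.2 CPM (gap 0.553).

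In P522R against M28L, a difference between the letters was called for 5.47% of all genes tested and for 2 of the 40 members. The difference of P522R from M28L was larger in F than in M libraries for Bsn, by 0.76 on the log2 scale (SE 0.17, edgeR adjusted p = 0.022), and for Rims3, by 0.63 (SE 0.19, adjusted p = 0.0497). Without the libraries over 10% Bc1, Bsn in P522R lay at -0.19 against M28L over both letters (not called). The part of those libraries in the difference between letters was not tested.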

How the results depend on the processing

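Without any 1 library, P522R against 5xFAD gave 9 to 9 members higher and 11 to 13 lower, P522R against M28L 10 to 12 higher and 11 to 14 lower, and M28L against 5xFAD 0 in either direction. In P522R against 5xFAD the counts were 3 higher and 4 lower with the title prefix as a block, 4 and 2 with a Bc1 covariate, and 5 and 7 without libraries over 10% Bc1, while F libraries alone gave 8 and 4 (13.6% of all genes called). In P522R against M28L they were 3 and 5 with the prefix block, 0 and 0 with the Bc1 share, and 4 higher without Bc1-high libraries, or 5 higher also without M28L replicate 28. There M libraries alone gave 6 and 16 (24.3% of all genes), F libraries alone 14 and 7 (28.9%) and GC offsets 9 and 17 (33.2%). The prefix block called 4.40% and 5.92% of all genes in the respective comparisons. The cause of these moves was not tested.

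Some members changed sign. In M libraries alone, Bsn lay at -0.29 against 5xFAD and -0.31 against M28L, and Unc13a at -0.21 against 5xFAD. With GC offsets, Bsn lay at -0.23 against M28L, Doc2a at -0.22 against 5xFAD and -0.18 against M28L, and Stx1a at -0.15 against 5xFAD. With GC and length offsets, Doc2a lay at -0.23 and -0.21, and Stx1a at -0.16 and -0.14, against 5xFAD and M28L. Against M28L these offsets gave Nrxn3 0.14, Pclo 0.14 and Slc32a1 -0.18. With the first GC definition they gave Doc2a -0.23 and -0.21, Stx1a -0.16 and -0.13, Pclo 0.14 and Slc32a1 -0.18.

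All members were counted at a mean of at least 1 CPM in libraries of 79230161 counts or more, and the effect of depth was not tested. With 8 mice per genotype, small differences can be missed. The animal numbers in the titles run from 1177 to 1270 in 5xFAD and from 8 to 106 in the M28L and P522R groups. Whether these numbers follow a batch is not given in the labels. No label names a batch, and a batch that follows genotype could not be told apart from it.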
